A study of Mus musculus with 6 samples.

Results

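The genes described here encode 10 proteins that shorten or lengthen the life of inflammatory mRNAs or edit the ubiquitin chains of NF-kB signalling: the tristetraprolin family (Zfp36, Zfp36l1, Zfp36l2), regnase-1 and regnase-3 (Zc3h12a, Zc3h12c), the roquins (Rc3h1, Rc3h2), the mRNA stabiliser HuR (Elavl1), A20 (Tnfaip3) and its partner ABIN-1 (Tnip1). They were chosen by symbol, with 1 probe set for each, and all 10 were among the 19505 genes measured. The choice was made with earlier results of these data known. RAW264.7 cells, a mouse macrophage line, were grown for 3 days on a pristine surface of the implant polymer polyetheretherketone (PEEK), which was the control, or on a modified PEEK surface. There were 3 samples of each surface and 6 Affymetrix arrays of total RNA in all; all cells were of the same line in the same medium. The labels do not say what the modification consists of. The labels do not state whether the samples of 1 surface were independent cultures, so p-values reflect only how far these samples vary, and that variation may be technical.

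Macrophages that sense danger make short-lived mRNAs for cytokines, chemokines and prostaglandin synthesis, and much of the later decline of these mRNAs is set by decay. Tristetraprolin and its relatives bind AU-rich elements and bring in the deadenylase complex CCR4-NOT, whereas HuR binds similar elements and protects the mRNA. Regnases are endoribonucleases that cut mRNA stem-loops, and roquins bind stem-loops and bring in deadenylation. A20 edits and binds ubiquitin chains on signalling proteins upstream of NF-kB, and ABIN-1 helps it to do so. Several of these genes are themselves induced by NF-kB or by p38 kinase signalling, so they serve as feedback.

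The values were log2 signals, with similar distributions on all arrays. Correlations between arrays over genes ranged from 0.991 to 0.995 for arrays of the same surface and from 0.985 to 0.988 for arrays of different surfaces. A background of 3.72 was taken as the 95th percentile of mean signal over 1410 genes for olfactory or vomeronasal receptors, which macrophages are not known to use. Of 9 measured macrophage markers, 8 lay above it, with 2 higher (Adgre1 and Mertk, the latter below the background) and 2 lower (Itgam and Fcgr1) on modified PEEK by the test used below. Of 17 markers of stroma, T cells, B cells, epithelium and endothelium, 8 lay above it, the highest mean being 5.90, and 0 passed by limma, with 0 at an unadjusted p under 0.05, beside 22.7% of all genes. All 10 genes had means above the background on both surfaces, the lowest being 6.21. The median standard deviation (SD) of the 10 genes between arrays was 0.060 on pristine and 0.096 on modified PEEK, beside 0.117 and 0.152 for all genes.

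On modified PEEK, 4 of the 10 genes were lower and 2 were higher. The lower ones were both regnase genes, Zfp36 and Tnip1, by 1.36-fold to 1.59-fold. Both relatives of tristetraprolin, Zfp36l1 (1.80-fold) and Zfp36l2 (1.27-fold), were higher. Rc3h1, Rc3h2, Elavl1 and Tnfaip3 did not pass. Leaving out any 1 array left 1 gene higher, Zfp36l1, beside 594 to 903 of all 19505 genes. Leaving out pristine PEEK replicate 1 or 3 left 2 lower, Zc3h12a and Zc3h12c, beside 608 and 548 of all genes. Genes were called with limma at a Benjamini-Hochberg adjusted p under 0.05 over all genes. By the same rule 5.15% of all genes were lower and 5.24% higher (10.4% in either direction). These shares include dim genes, while all 10 genes lay above the background. With the lowest 25% of genes by signal left out, 1229 of 14629 genes were lower and 1221 higher, and 4 and 2 of the 10 genes. The 3 arrays of each surface did not overlap for 7 of the 10 genes, 5 lower and 2 higher, beside 28.8% of all genes. The median change of the 10 genes, modified minus pristine, was -0.15, and that of all genes was 0.0088. With total RNA from whole cultures, fewer cells that use a gene and less RNA of it per cell cannot be told apart.

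**Figure D1:**
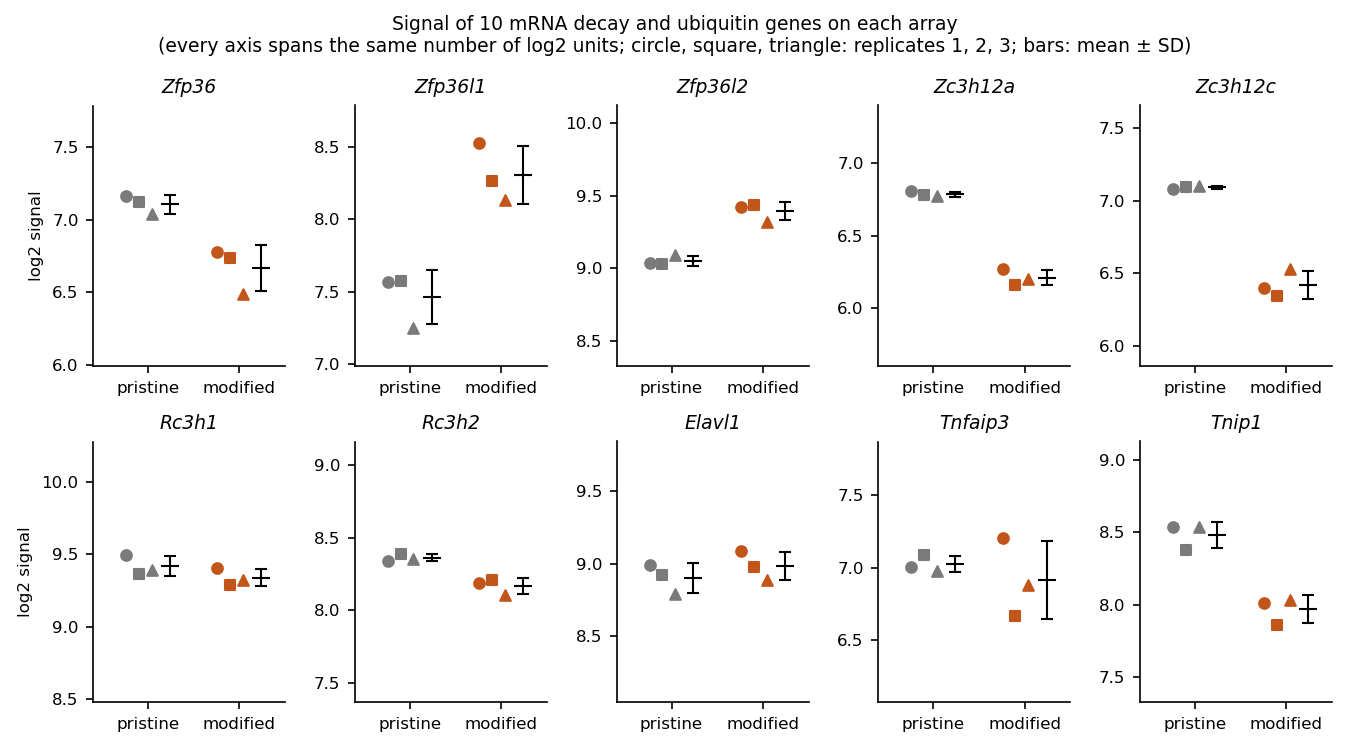
Log2 signal (vertical axis, spanning the same number of units in each panel) of each of the 10 genes on the 3 pristine (grey) and 3 modified (orange) PEEK arrays, with bars for the mean ± SD. Zfp36l1 and Zfp36l2 sit higher and Zfp36, Zc3h12a, Zc3h12c, Rc3h2 and Tnip1 lower on modified PEEK with no overlap, while Rc3h1, Elavl1 and Tnfaip3 overlap.

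The tristetraprolin family moved in both directions. Zfp36, encoding tristetraprolin itself, read 7.17, 7.12 and 7.04 on the pristine arrays and 6.78, 6.74 and 6.49 on the modified ones. Every modified array was below every pristine one, with a gap of 0.26, and modified replicate 3 was the lowest. The change was -0.44 ± 0.11 (standard error, SE), which passed with an adjusted p of 0.0390 by limma. This call is close to the threshold: among the fits on 5 arrays it held only without modified PEEK replicate 1, and failed without modified PEEK replicate 2 or 3 or any pristine PEEK replicate (1, 2 or 3; adjusted p at most 0.131), and when arrays were centred on their medians (adjusted p = 0.0535). Among all genes, 5.12% fell by at least as much.

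Zfp36l1, encoding a relative that binds the same kind of element, read 7.57, 7.57 and 7.25 on pristine and 8.53, 8.27 and 8.13 on modified PEEK. The lowest modified array exceeded the highest pristine one by 0.56. Its rise of 0.85 ± 0.14 (SE; limma adjusted p = 0.00670) was the largest change of the 10 genes, and 1.59% of all genes rose by at least as much. It passed in all 6 fits without 1 array, with an adjusted p of up to 0.0274. The spread of Zfp36l1 between arrays, an SD of 0.19 on pristine and 0.20 on modified PEEK, was wider than the median of all genes.

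Zfp36l2, the other relative, read 9.04, 9.03 and 9.09 on pristine PEEK. On modified PEEK the arrays read 9.43, 9.43 and 9.32, all above the pristine ones. The rise of 0.34 ± 0.09 (SE) had an adjusted p of 0.0479 by limma, just under the threshold. The call was lost in every fit on 5 of the arrays (adjusted p between 0.0773 and 0.163) and with arrays centred on their medians (adjusted p = 0.0843), while the change itself stayed between 0.32 and 0.38 in the fits without 1 array.

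The family members were also compared within each array, which does not depend on how arrays are scaled to each other. The log2 difference Zfp36 minus Zfp36l1, set against its pristine mean, was -0.0477, -0.0972 and 0.14 on pristine PEEK. It was -1.39, -1.17 and -1.29 on modified PEEK, so the balance of the signals shifted 2.44-fold towards Zfp36l1. Zfp36 against Zfp36l2 shifted by -0.78 and Zfp36l1 against Zfp36l2 by 0.50, again with no overlap between surfaces. In an exact permutation test (two-sided, 3 arrays against 3), each of these 3 differences had p = 0.1, the smallest this design allows, and 0.167 after adjustment over the 5 pairs tested. They therefore could not pass at 0.05 in this design.

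**Figure D2:**
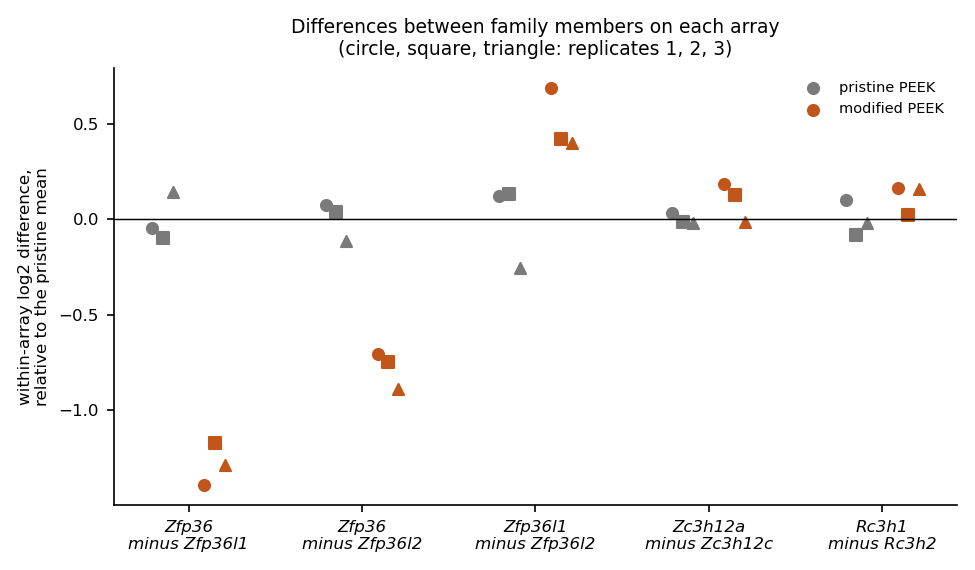
Within-array log2 differences (vertical axis) between family members for 5 pairs (horizontal axis), each set to a pristine mean of 0, with 1 symbol per array. The 3 pairs of the tristetraprolin family separate the surfaces, from -1.28 for Zfp36 minus Zfp36l1 to 0.50 for Zfp36l1 minus Zfp36l2, and the regnase and roquin pairs overlap.

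The promoters of the pair that moved in opposite directions are shown here as the 250 bases before the RefSeq start of each gene, with matches to 3 motifs in capitals. The motifs, searched on both strands, were the NF-kB motif, the serum response element and the AP-1 motif TGACTCA. They stand in 7.25%, 1.47% and 4.46% of the 32851 RefSeq promoters of the same length. RefSeq promoters were matched for 9 of the 10 genes, with 11 windows in all; Zfp36l2 was not matched. The capitals in Zfp36 mark a serum response element match, 58 to 49 bases before the start, and it was the only match to that motif among these windows. In the window of Zfp36l1 none of the 3 motifs was found, so it has no capitals.
Zfp36 (GRCm38.p6, chr7:28379229-28379478, minus strand): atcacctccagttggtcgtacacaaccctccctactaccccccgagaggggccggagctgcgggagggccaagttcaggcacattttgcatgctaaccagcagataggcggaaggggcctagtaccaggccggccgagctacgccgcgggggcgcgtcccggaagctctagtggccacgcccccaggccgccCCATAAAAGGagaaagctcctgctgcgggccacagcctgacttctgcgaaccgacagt
Zfp36l1 (GRCm38.p6, chr12:80113014-80113263, minus strand): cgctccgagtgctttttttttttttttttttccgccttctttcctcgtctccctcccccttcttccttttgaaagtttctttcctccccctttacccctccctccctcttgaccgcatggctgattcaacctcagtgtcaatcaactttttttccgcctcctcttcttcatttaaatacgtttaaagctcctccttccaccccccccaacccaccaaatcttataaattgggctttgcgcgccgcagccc
A match describes the letters only; no binding was measured here.

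Both regnase genes fell. Zc3h12a, encoding regnase-1, which cuts stem-loops of mRNAs such as that of interleukin 6, read 6.81, 6.78 and 6.77 on pristine and 6.27, 6.16 and 6.20 on modified PEEK. The groups were 0.50 apart, with an SD of 0.0177 and 0.0547. The change of -0.57 ± 0.09 (SE) passed with a limma adjusted p of 0.00455, and 3.15% of all genes fell by at least as much. Zc3h12c, encoding regnase-3, read 7.08, 7.10 and 7.10 on pristine and 6.40, 6.34 and 6.53 on modified PEEK. The pristine arrays lay within an SD of 0.0102, and the gap to the modified arrays was 0.56. Its change of -0.67 ± 0.09 (SE; limma adjusted p = 0.00283) was the largest fall of the 10 genes, and 2.32% of all genes fell by at least as much. Both calls held in all 6 fits without 1 array, with an adjusted p of up to 0.0261 for Zc3h12a and 0.0179 for Zc3h12c.

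The regnase genes were also compared with each other. Zc3h12a minus Zc3h12c, set to its pristine mean, ranged from -0.0202 to 0.0319 on pristine and from -0.0157 to 0.18 on modified PEEK, and the surfaces overlapped. The difference of change was 0.0992 (exact permutation test, two-sided p = 0.3). This does not show that they fell equally.

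The roquin genes did not pass. Rc3h1, encoding roquin-1, read 9.50, 9.36 and 9.39 on pristine and 9.41, 9.29 and 9.32 on modified PEEK, so the groups overlapped. The change was -0.0779, with a 95% interval of -0.29 to 0.13 from limma. Rc3h2, encoding roquin-2, read 8.34, 8.39 and 8.35 on pristine and 8.19, 8.21 and 8.10 on modified PEEK. Its arrays did not overlap, but the change of -0.19 (95% interval -0.40 to 0.00668) had an adjusted p of 0.238 by limma. For Rc3h1 minus Rc3h2 the difference of change was 0.12 (exact permutation test, two-sided p = 0.2), with overlap between surfaces.

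Elavl1, the gene of the stabiliser HuR, read 8.99, 8.92 and 8.79 on pristine PEEK. On modified PEEK it read 9.09, 8.98 and 8.89, so the groups overlapped. The change of 0.0826 (95% interval -0.15 to 0.32) had a limma adjusted p of 0.714.

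Of the ubiquitin pair, Tnip1 was lower and Tnfaip3 did not pass. Tnip1, encoding ABIN-1, read 8.53, 8.38 and 8.54 on pristine PEEK. The modified arrays read 8.01, 7.86 and 8.04, each below every pristine array by at least 0.35. The fall of 0.51 on the log2 scale (SE 0.10; limma adjusted p = 0.0139) was larger than the spread of either surface, and 3.90% of all genes fell by at least as much. Without pristine PEEK replicate 1 the adjusted p was 0.0615, without pristine PEEK replicate 3 it was 0.0684, and with any other array left out the call held.

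Tnfaip3, encoding A20, read 7.01, 7.09 and 6.98 on pristine PEEK. The modified arrays read 7.20, 6.67 and 6.88, 1 above and 2 below all pristine arrays. The SD was 0.27 on modified and 0.0557 on pristine PEEK, a ratio of 4.82, which was not tested. Over the 10 genes this ratio ran from 0.874 for Rc3h1 to 9.43 for Zc3h12c. The change of -0.10 (95% interval -0.43 to 0.22) had a limma adjusted p of 0.737. Without modified PEEK replicate 2 the change was 0.0202. A difference between the changes of Tnip1 and Tnfaip3 was not tested.

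Both genes are known NF-kB targets, and their promoters, again the 250 bases before the RefSeq start, hold matches to that motif. In Tnip1 the capitals mark 1 NF-kB stretch, 58 to 47 bases before the start. In Tnfaip3 they mark 2 NF-kB matches, 125 to 116 and 12 to 3 bases before the start, and 1 AP-1 match, 136 to 130 bases before it. None of these overlaps another motif. An NF-kB match also stood in 1 of the 2 windows of Zc3h12c, so 3 of the 11 windows held one, and an AP-1 match in that of Rc3h1.
Tnip1 (GRCm38.p6, chr11:54962941-54963190, minus strand): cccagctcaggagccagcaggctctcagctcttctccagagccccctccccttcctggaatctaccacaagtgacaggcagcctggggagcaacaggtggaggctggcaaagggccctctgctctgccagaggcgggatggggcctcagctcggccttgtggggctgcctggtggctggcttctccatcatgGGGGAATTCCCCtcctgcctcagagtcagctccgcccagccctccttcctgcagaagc
Tnfaip3 (GRCm38.p6, chr10:19015411-19015660, minus strand): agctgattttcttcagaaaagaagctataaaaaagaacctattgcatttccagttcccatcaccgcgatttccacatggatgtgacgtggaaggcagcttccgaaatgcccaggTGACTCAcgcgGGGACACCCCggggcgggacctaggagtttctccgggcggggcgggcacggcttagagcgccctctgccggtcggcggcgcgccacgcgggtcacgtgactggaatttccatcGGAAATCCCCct
The second Tnfaip3 window, from another RefSeq start, held none of the 3 motifs.

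**Figure D3:**
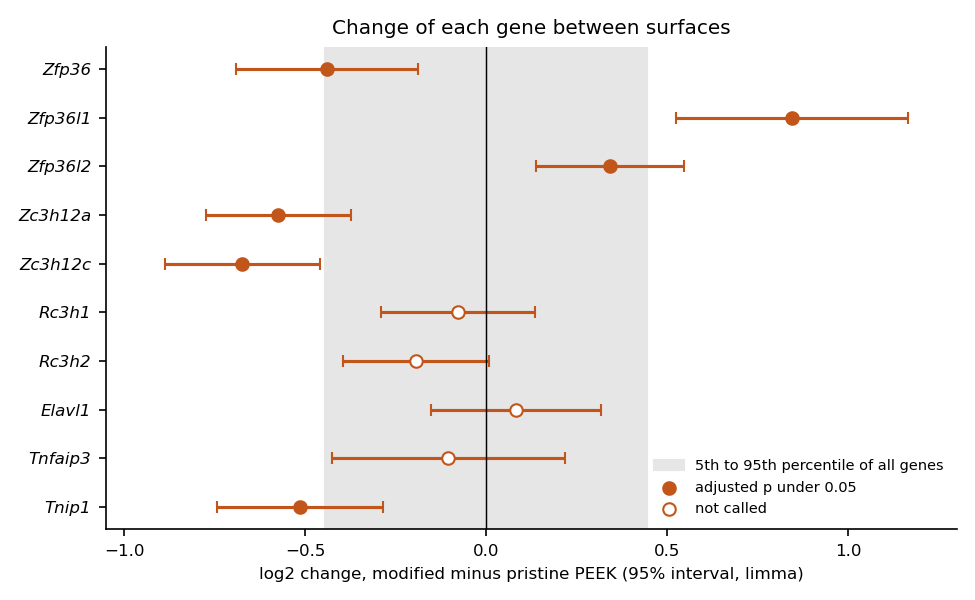
Log2 change of each gene, modified minus pristine PEEK (horizontal axis), with its 95% interval from limma; filled points passed, and the grey band runs from the 5th to the 95th percentile of all genes (-0.44 to 0.44). Zfp36l1 lies above the band, Zc3h12a, Zc3h12c and Tnip1 lie below it, and the 4 open points have intervals that cross 0.

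How the arrays were scaled bore on these calls. The 24 poly-A spike probe sets averaged 0.25 lower on modified PEEK. Probe sets of the hybridization controls also differed, by -0.17, modified minus pristine. Scaling the arrays to the poly-A spikes moved the median change of all genes to 0.26. The genes passing were then 1575 higher and 290 lower, in place of 1023 and 1004. On that scale Zfp36l1 (1.09) and Zfp36l2 (0.59) were higher and 0 of the 10 genes were lower by limma, with 1 lower at an unadjusted p under 0.05, beside 2.76% of all genes. Zc3h12c (-0.43, adjusted p = 0.111), Zc3h12a (-0.33, 0.201), Tnip1 (-0.27, 0.283) and Zfp36 (-0.19, 0.461) kept a negative sign without passing. Relative to the median of all genes they stood at -0.68, -0.58, -0.52 and -0.45, as in the main fit. The scaling shifts all genes of an array alike, so it cannot alter these relative values, and they do not test the calls. Rc3h1, Rc3h2 and Tnfaip3 turned from negative to positive on the spike scale and did not pass on either. The part of spike or array differences in the result was not tested.

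**Figure D4:**
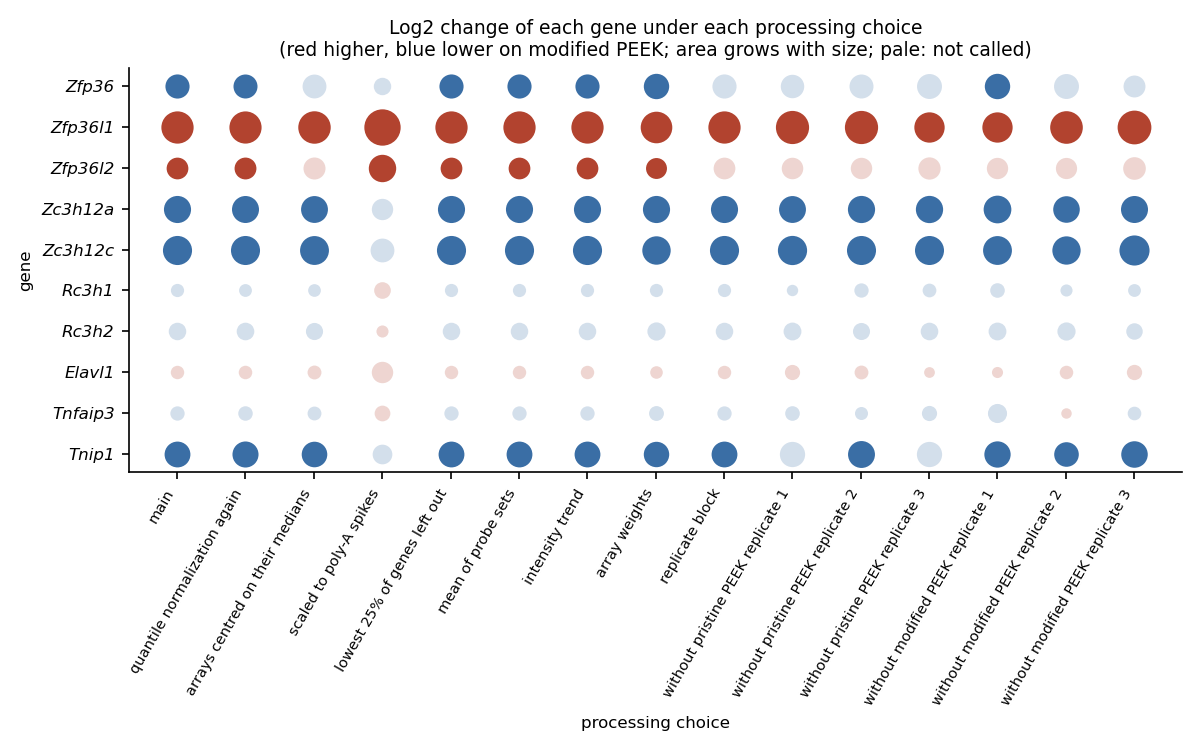
Log2 change of each gene (rows) under the main processing and 14 alternatives (columns); area grows with the size of the change, red is higher and blue lower on modified PEEK, and pale symbols did not pass. Zfp36l1 passed in all 14 alternatives and Zc3h12a and Zc3h12c in 13, all but the scaling to poly-A spikes, while Zfp36 and Zfp36l2 passed in 6 each.

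The machinery that these proteins recruit was represented by 38 measured genes of deadenylation, decapping, the exosome and 5′ to 3′ decay. By limma 1 of them was higher (2.63%, beside 5.24% of all genes) and 0 were lower (beside 5.15%), and with so few genes these counts are near the background. At an unadjusted p under 0.05 the counts were 6 higher and 0 lower, beside 11.3% and 11.4% of all genes. The higher one was Cnot6l, a catalytic deadenylase subunit of CCR4-NOT, at 8.45 ± 0.07 against 8.84 ± 0.05 on the modified surface (SD, n = 3; limma adjusted p = 0.0308). That call was lost with arrays centred on their medians and in each fit without 1 array except the one without modified PEEK replicate 1 (adjusted p up to 0.129). The list's changes ran from -0.16 to 0.40, with a median of 0.0862.

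Of 17 other proteins that bind AU-rich elements or stem-loops, 2 were higher (11.8%, beside 5.24% of all genes) and 0 lower (beside 5.15%) by limma, with a median change of 0.0344. At an unadjusted p under 0.05 the counts were 4 and 1, beside 11.3% and 11.4% of all genes. Hnrnpd, encoding AUF1, which promotes the decay of many AU-rich mRNAs, read 8.76, 8.70 and 8.76 on pristine and 9.32, 9.38 and 9.70 on modified PEEK (1.65-fold; limma adjusted p = 0.00648). Hnrnpa0, encoding an RNA-binding protein that MK2 phosphorylates, rose 1.69-fold (limma adjusted p = 0.0101). Both calls held in all 6 fits without 1 array.

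Among 31 measured partners in ubiquitin editing, 6 were lower and 1 was higher, 19.4% and 3.23% beside 5.15% and 5.24% of all genes, with a median change of -0.0523. This list, like the other lists here, was chosen with earlier results of these data known. Tnip3, encoding ABIN-3, a relative of ABIN-1, read 9.67, 9.71 and 9.52 on pristine and 10.54, 10.55 and 10.44 on modified PEEK, a rise of 0.87 ± 0.10 (SE; limma adjusted p = 0.00107). It lay in the opposite direction to Tnip1. Rnf11, a ubiquitin ligase subunit of the A20 complex, fell by 0.84 on the log2 scale (limma adjusted p = 0.00450), and all 3 modified arrays, from 6.19 to 6.61, lay below the pristine ones. Usp18, an interferon-induced protease that removes ISG15, fell by 1.27. Traf1 fell by 0.72 and Ikbkg, encoding the ubiquitin-binding kinase subunit NEMO, by 0.71. The call for Traf1 was lost without pristine PEEK replicate 1, 2 or 3 (limma adjusted p up to 0.0593), and that for Ikbkg without pristine PEEK replicate 2 or 3 (up to 0.0867). Leaving out pristine PEEK replicate 2 or 3 left 3 genes lower, beside 585 and 548 of all 19505 genes. The spike scale left 2 lower, beside 1.49% of all genes, and neither Traf1 nor Ikbkg was among them. Ikbkg also lost its call with the replicate block.

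The p38 and MK2 kinase branch phosphorylates tristetraprolin and holds it inactive through 14-3-3 proteins. The list for this branch held 14 measured genes of kinases, phosphatases and 14-3-3 proteins, so its counts give no direction for the branch. Of these genes, 3 were higher and 2 lower, 21.4% and 14.3% beside 5.24% and 5.15% of all genes (median change -0.0495). Mapkapk2, encoding MK2 itself, changed by 0.33 and did not pass (limma adjusted p = 0.114). Dusp1, encoding the phosphatase that switches p38 off, was 9.06 ± 0.05 on pristine and 8.22 ± 0.09 (SD, n = 3) on modified PEEK, 1.80-fold lower (limma adjusted p = 0.00110). Ywhag, a 14-3-3 gene, fell by 0.63 and did not pass on the spike scale (-0.38, limma adjusted p = 0.161). Map2k6, a kinase that activates p38, rose by 0.94 from 4.17 ± 0.32 to 5.11 ± 0.19 (SD, n = 3; limma adjusted p = 0.0111), and lost its call without modified PEEK replicate 3 (adjusted p = 0.0528). Mapk14, the p38 alpha gene, rose by 0.37 (limma adjusted p = 0.0349), and that call was lost without any 1 of the 6 arrays (up to 0.138). Mapkapk3 rose by 0.45 (limma adjusted p = 0.0392), from a mean of 3.95 to 4.40, near the background of 3.72. It passed without modified PEEK replicate 1 but in no other fit without 1 array (up to 0.155). Its call was also lost with an intensity trend and with the replicate block. The number higher was 0 without modified PEEK replicate 3, beside 673 of all 19505 genes. It was 1 without modified PEEK replicate 2 or any pristine PEEK replicate (1, 2 or 3), beside 594 to 903 of all genes.

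The target list held 29 measured mRNAs that tristetraprolin, regnase-1 or roquin is known to act on. Of these, 17 were lower and 2 higher, 58.6% and 6.90% beside 5.15% and 5.24% of all genes, with a median change of -0.56. The mean signal of 24 of them lay above the background of 3.72. Il1a, Il1b, Il6, Il10 and Csf2 lay below it and were not called. The list was chosen with earlier results of these data known. On the spike scale 13 were lower and 2 higher, beside 1.49% and 8.07% of all genes. Tnf, the classic tristetraprolin target, was added to the genes named after its values were seen. Its arrays read 9.97, 10.03 and 10.12 on pristine and 9.52, 9.50 and 9.45 on modified PEEK. The call for Tnf (limma adjusted p = 0.00696) was lost on the spike scale. The largest falls were those of Lcn2 (from 9.88 to 3.78, with 2 modified arrays above the 3.72 background and 1 below it), Cxcl2 (9.40-fold), Plk2 (6.61-fold) and Ptgs2 (5.68-fold). The 2 higher genes were Icos, a roquin target, from 4.10 ± 0.23 to 5.33 ± 0.20 (SD, n = 3; limma adjusted p = 0.00159), and Fos, from 7.02 ± 0.02 to 7.99 ± 0.04 (SD, n = 3; limma adjusted p = 0.000425). These levels come from the same arrays as those of the decay factors, and mRNA half-lives were not measured.

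**Figure D5:**
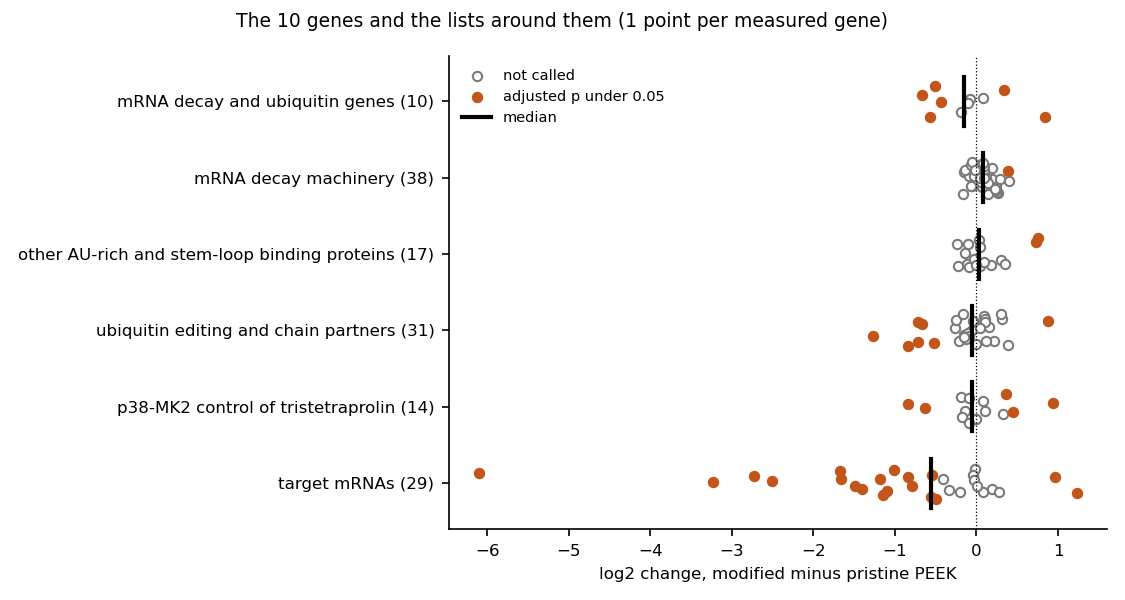
Log2 change, modified minus pristine PEEK (horizontal axis), of each measured gene in the group of 10 and in 5 surrounding lists; filled points passed and black bars are medians. The target list has a median of -0.56, while the medians of the 4 other lists lie between -0.0523 and 0.0862.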

How the data were processed

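Total RNA (250 ng per sample, biotin-labelled) from RAW264.7 cells was profiled on 6 Affymetrix arrays, 3 per surface, per the labels' protocols. The authors deposited 1 log2 signal for each probe set. The submitters' processing notes list RMA but give neither its version nor its role; that the scale is log2 was inferred from values between 0.941 and 12.4. No genome build is stated for the array. All sample columns were used, with 0 left out.

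Gene names came from the platform annotation. Of 29129 features, 6923 were array controls, 19572 probe sets named 1 gene, 0 named several and 2634 transcript probe sets had no name in the table used here. The brightest probe set was kept for the 55 genes with several. Each of the 10 genes has 1 probe set. The comparison of modified with pristine PEEK was fitted to all 6 arrays in limma (version 3.58.1, R 4.3.3) with lmFit and then eBayes, two-sided and with no trend or covariate (4 residual and 4.09 prior degrees of freedom), with Benjamini-Hochberg adjustment over 19505 genes. Intervals are limma's at 95%. Folds are powers of 2 of log2 changes, which array compression can shrink. The number of arrays limits the precision. Motifs were matched in RefSeq promoters of GRCm38.p6.

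The members and lists were chosen with earlier results of these data known. From each list, up to 4 called genes with the largest change in each direction could be named, and up to 2 bright genes that were not called. Of these picks, the results above name only the called ones. Tnf, Mapkapk2, Il1a, Il1b, Il6, Il10 and Csf2 are named there too, although the rule did not pick them. The bright picks that were not called were Cnot2, Pabpc1, Ybx1, Pcbp2, Birc3, Tnfaip8l2, Ppp2r1a, Ywhaz, Rel and Pim1. Alternatives were repeated quantile normalization, centring on array medians, scaling to poly-A spikes, leaving out the lowest 25% of genes by signal, the mean of probe sets, array weights, an intensity trend, blocking on the replicate number and leaving out each array. The fit for this comparison was checked on simulated data, in 5 runs with 200 changed genes each. It recovered 22.6% of changes of 0.5 log2 units, 70.7% of changes of 1 and 97.9% of changes of 2. A gene that did not pass may therefore still have changed by an amount of this size.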

Additional observations from a re-analysis of the deposited data

How the results depend on the processing

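The number of arrays and the modest size of these changes limit the calls. The labels do not say whether the replicate numbers pair the arrays. The correlations of same-numbered deviations were -0.17, -0.16 and 0.0685, and not every array correlated best with its own number. Deviations from means of 3 arrays are tied to each other, so these correlations cannot settle the pairing. When the fit was blocked on the replicate number, Zfp36 (limma adjusted p = 0.0744) and Zfp36l2 (0.146) lost their calls. With the replicate block, 646 genes were higher and 622 lower; of the 10 genes 1 was higher and 3 were lower, of the decay machinery 0 were higher (2 at an unadjusted p under 0.05, limma) and of the p38 branch 1 was higher. Scaled to the poly-A spikes, the counts were 1575 higher and 290 lower among all genes, 0 of the 10 genes lower, 2 decay machinery, 4 AU-rich binding and 3 ubiquitin genes higher, and 2 ubiquitin genes and 1 p38 branch gene lower. On that scale Rc3h1 (0.17), Rc3h2 (0.0525) and Tnfaip3 (0.14) reversed without passing, and Tnfaip3 reversed to 0.0202 without modified PEEK replicate 2; its range over the fits without 1 array was -0.25 to 0.0202. An intensity trend gave 1586 genes higher and 1719 lower, with 5 decay machinery, 4 AU-rich binding and 4 ubiquitin genes higher, and 1 AU-rich binding and 4 p38 branch genes lower. With arrays centred on their medians, 910 of all genes were higher. On that scale 1 of the 10 genes and 0 of the decay machinery (6 at an unadjusted p under 0.05, limma) were higher. Repeated quantile normalization gave 2 decay machinery and 2 ubiquitin genes higher, beside 1141 of all genes. Array weights gave 2 and 2, beside 1202. Leaving out the lowest 25% of genes gave 2 and 3, beside 1221 of the 14629 genes kept. Leaving out 1 array gave 594 to 903 genes higher and 548 to 1048 lower; 1 of the 10 genes higher in each and 2 to 4 lower; 0 to 1 decay machinery genes and 0 to 2 p38 branch genes higher; and 3 to 6 ubiquitin genes lower. The differences between family members kept their sign in the alternatives run for them. Centring on medians, scaling to spikes and the mean of probe sets could not change that sign. The first 2 shift all genes of an array alike, and each of the 10 genes has 1 probe set. The cause of these changes was not tested.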
